A study of Rattus norvegicus with 21 samples.

Results

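The move from the early to the chronic state of the injured bladder was followed in 6 of the 21 rat bladder libraries of the study, the 3 collected 2 weeks and the 3 collected 8 weeks after spinal cord injury (SCI). The 6 libraries were chosen by their labels alone, and each carries the label of a different animal. All rats were male, wild-type (WT) Sprague Dawley, an outbred strain, and were 6 to 7 weeks old when the cord was cut through completely at T8, the eighth thoracic level. The other libraries came from injured rats at 16 weeks and from rats without injury (controls) at 0, 2, 8 and 16 weeks, with 3 libraries in each of the 7 groups. RNA was taken from the full thickness of the bladder wall, so urothelium, muscle, connective tissue, vessels and nerves were measured together, and fewer cells of a type cannot be told apart from less RNA per cell. Within the injured arm, time since injury and age of the rat advanced together and cannot be told apart. The controls at 2 and 8 weeks span the same interval without injury.

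As background, a complete cord lesion above the sacral segments first leaves the bladder areflexic during spinal shock, and it fills without voiding on its own. A spinal reflex then emerges, the detrusor contracts involuntarily during filling, and the sphincter contracts against it instead of relaxing. The wall works against outlet resistance for a long time and is known to thicken, with growth of smooth muscle and deposition of extracellular matrix. No measure of bladder function was analysed here.

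The values were raw counts per Ensembl rat gene. Total counts of the 6 libraries ran from 8477750 to 10740933, so 1 CPM (counts scaled to a common library size) rested on 8.48 to 10.7 counts. CPM here is scaled by trimmed mean of M values (TMM) factors, is not divided by gene length, and is compared between libraries, not between genes. Of 32754 genes, 15225 had enough counts to be tested. The files do not pair identifiers with gene names and 0 of the 32754 identifiers matched the reference table used for names, so genes are described by their measurements, 4 of them by identifier. For the same reason the labelled tissue could not be checked against markers of smooth muscle, urothelium, fibroblasts or leukocytes, and lists of pathway and cell-type genes could not be counted. The labels place all libraries in a single batch.

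The first question was whether the 6 libraries separated by week. In principal components of log2 CPM, the first component held 34.1% of the variance and did not follow the week. It set SCI 8 weeks replicate 2, at 41.2, apart from the other 5 libraries, which lay between -22.6 and 8.38. The second component held 23.4% of the variance and divided the weeks completely, with the 2-week libraries from -17.7 to -16.2 and the 8-week libraries from 7.93 to 23.7. Pairs of 2-week libraries differed by a root mean square of 0.395 to 0.446 on the log2 scale, and pairs across weeks by 0.429 to 0.567. Among the 8-week libraries, replicates 1 and 3 differed by 0.39, the smallest distance of all pairs, whereas replicate 2 lay 0.555 from replicate 1 and 0.482 from replicate 3. The 2 animals at 8 weeks that resembled each other were thus about as close as the closest pair at 2 weeks, and the third was as far from them as libraries of different weeks were from each other.

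**Figure D1:**
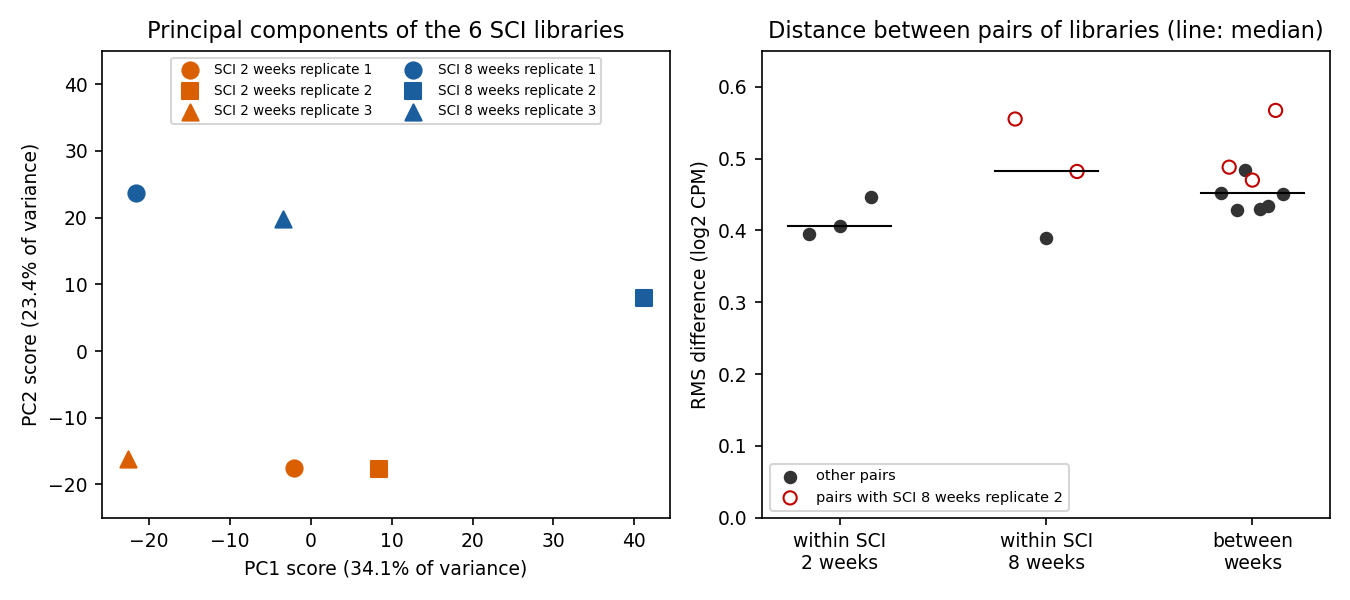
Left, scores of the 6 SCI libraries on the first 2 principal components of log2 CPM over 15225 genes, with orange for 2 weeks and blue for 8 weeks. Right, root mean square difference in log2 CPM for each pair of libraries, with open red circles for pairs that include SCI 8 weeks replicate 2. The second component separates the weeks (2 weeks at or below -16.2, 8 weeks at or above 7.93), while the first separates 1 library at 41.2 from the rest.

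Over these 6 libraries, the difference between weeks held 24% of the sum of squares of log2 CPM. Of the 10 ways to split them into 3 and 3, 3 gave a share at least as large (one-sided exact permutation p = 0.3). The smallest p that 10 splits allow is 0.1, so this test could not have passed 0.05 and does not show that the weeks were alike. On the 500 most variable genes the share was 30.2%, with the smallest possible p (one-sided exact permutation p = 0.1). Leaving out SCI 8 weeks replicate 2 gave 33.4% (one-sided exact permutation p = 0.1, the smallest that 10 splits can give), and leaving out replicate 1 of that group gave 31.2% with the same p. The other 4 libraries, left out in turn, gave 26.4% to 28.7% (one-sided exact permutation p = 0.3 to 0.5). In the 6 control libraries of the same weeks, the difference between weeks held 34.9% (exact permutation p = 0.1, one-sided). The spread within groups was like in both arms, with a standard deviation of log2 CPM of 0.294 and 0.293 in SCI and control at 2 weeks and of 0.34 and 0.348 at 8 weeks.

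The second question was which genes differed between 8 and 2 weeks after SCI. Of the 15225 genes tested, 2 were called at an adjusted p under 0.05 by edgeR's quasi-likelihood test, which is 0.0131% of those tested. Both were lower at 8 weeks, and no gene was called higher. The number called ran from 0 to 9 when 1 library of the study was left out. With only these 6 libraries fitted it was 1, and that gene was neither of the 2. A further look at unadjusted values gave 684 genes under 0.05, or 4.49% of those tested, where a uniform distribution of p would give about 761. These comprised 346 higher (2.27%) and 338 lower (2.22%) at 8 weeks. Of the 684, 39 were under 0.001. The typical change was small, with a median absolute log2 fold change of 0.11 over all tested genes, below the median standard error of 0.177, and 295 genes (1.94%) differed by a log2 fold change of at least 1. The 3 libraries at 8 weeks lay entirely above or below the 3 at 2 weeks for 1591 genes (10.4%), 803 higher (5.27%) and 788 lower (5.18%). If the 6 libraries stood in random order for each gene, a share of about 0.1 would separate in this way, so 10.4% is near that share. No gene had at least 10 counts in every library of one week and 0 in every library of the other. With library size alone in place of TMM factors, the 718 genes with an unadjusted p under 0.05 were 63.6% higher, against 50.6% with TMM, so the balance of directions rests on the scaling.

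The same interval in control bladders gave a different distribution of p. There 0 genes were called by the quasi-likelihood test (lowest adjusted p 0.104), yet 2881 genes had an unadjusted p under 0.05, which is 18.9% of those tested, 1561 higher (10.3%) and 1320 lower (8.67%), a balance that turned with library size alone, when 23.9% of 3533 genes were higher against 54.2% with TMM. Other tests of the same control libraries called 250 genes (DESeq2) and 193 genes (edgeR's likelihood ratio test), and in the SCI arm they called 22 and 28, of which 5 and 10 were higher at 8 weeks. The quasi-likelihood test itself called 453 control genes with only the groups compared and 211 without the 0-week controls, but still 0 with library size alone. In the SCI arm these 3 settings gave 1, 3 and 8. The median absolute log2 fold change in controls was 0.186 at the same median standard error of 0.177. In controls 482 genes (3.17%) differed by a log2 fold change of at least 1, and groups did not overlap for 4133 genes (27.1%). For the injured bladders the number of genes with an unadjusted p under 0.05 was 560 to 886 when any 1 library of the study was left out. The control count was 1777 to 3345 in the same refits. These refits share most of their libraries, so the ranges do not measure sampling spread and do not test a difference between the arms. Whether the 2 arms differed was tested gene by gene by the interaction given further on.

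**Figure D2:**
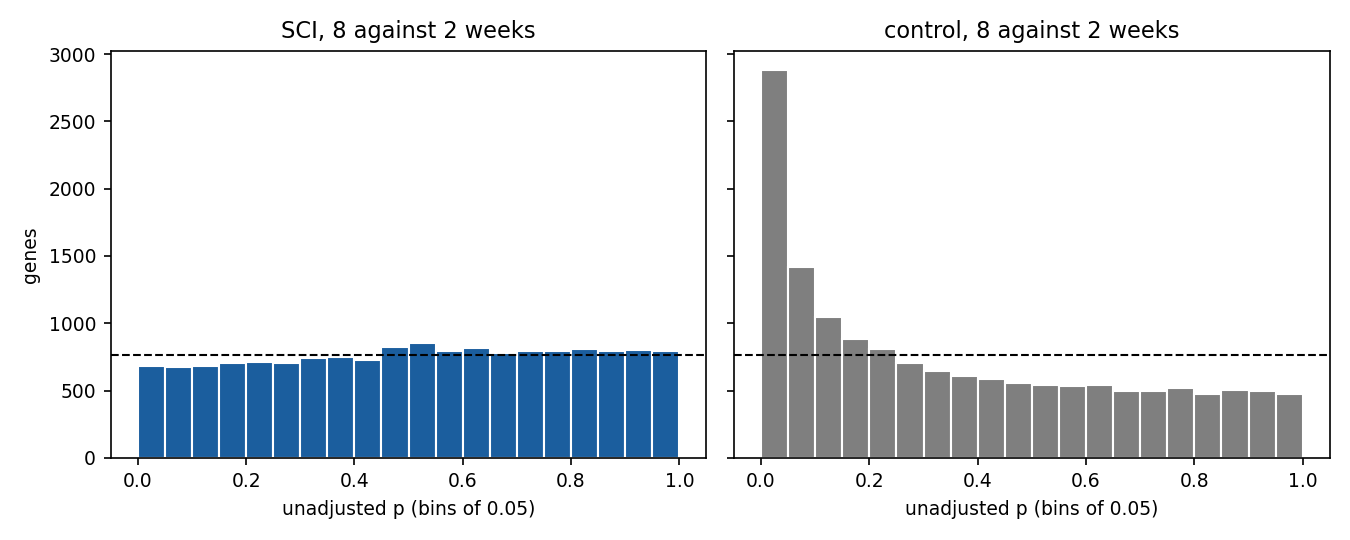
Number of genes in each bin of unadjusted p (quasi-likelihood test, 15225 genes) for 8 against 2 weeks in SCI libraries (left) and control libraries (right), and the dashed line is the mean number per bin, 761. The SCI histogram is nearly flat with 684 genes in the lowest bin, and the control histogram has 2881 there.

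The share of genes with an unadjusted p under 0.05 varied with level in the injured arm, from 2.82% of the 2060 genes at 100 to 1000 CPM (24 higher, 34 lower) to 8.33% of the 72 genes at 1000 CPM or more (0 higher, 6 lower). Levels here are means over all 21 libraries. Between 1 and 10 CPM the share was 5.93% of 4283 genes (122 higher, 132 lower), and between 10 and 100 CPM it was 4.06% of 8004 genes (186 higher, 139 lower). The precision was best at 100 to 1000 CPM, with a median standard error of 0.113 on the log2 scale, and poorest under 1 CPM, at 0.55. In controls the share was larger at each higher level, from 8.81% under 1 CPM to 28.7% at 100 to 1000 CPM and 47.2% (30 higher, 4 lower) at 1000 CPM or more. The most abundant genes had a median log2 fold change of 0.25 in controls and 0.02 after SCI, and library size alone moved the median of all genes to -0.12 in controls and 0.03 after SCI.

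**Figure D3:**
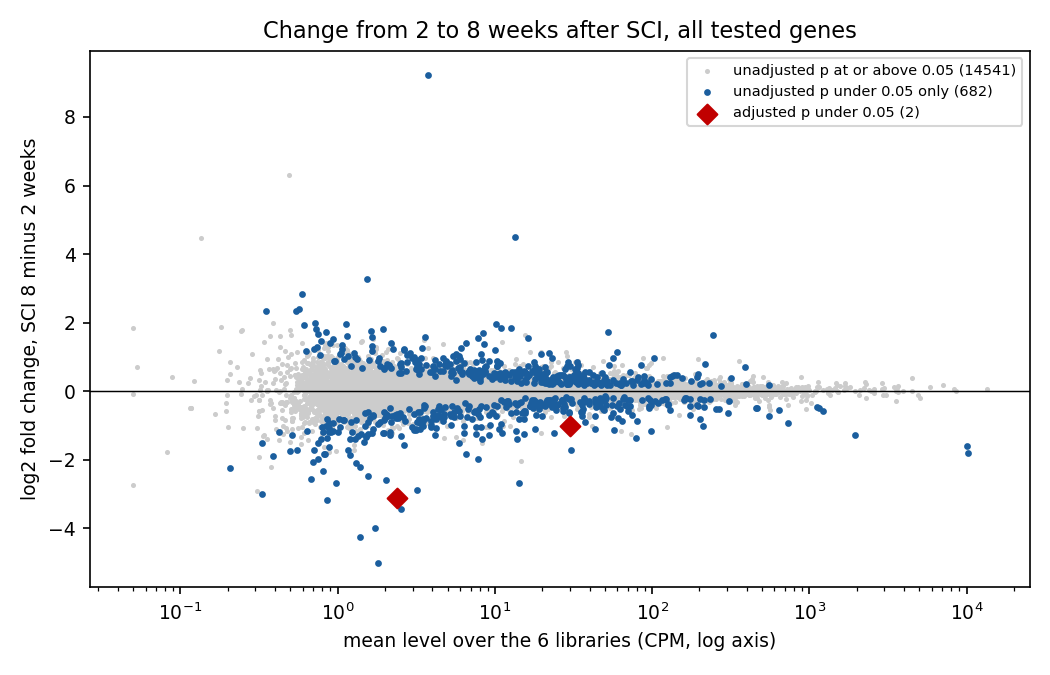
Log2 fold change of SCI 8 minus 2 weeks against mean CPM over the 6 libraries (log axis) for all 15225 tested genes, with grey for an unadjusted p of 0.05 or more, blue for 682 genes under 0.05 before adjustment only, and red diamonds for the 2 genes called after adjustment. The 3 genes with a mean under 0.05 CPM are drawn at 0.05, and the lowest blue points at the right edge are the abundant genes described by their share of counts.

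The first of the 2 called genes, ENSRNOG00000047712, was low at 2 weeks and close to the limit of counting at 8 weeks. It measured 3.04, 6.22 and 3.54 CPM in the 2-week libraries and 0.343, 0.546 and 0.587 CPM in the 8-week libraries, the latter from 4, 5 and 6 counts. The groups did not overlap, and the lowest 2-week library stood well above the highest 8-week library. The mean fell from 4.27 ± 1.71 to 0.492 ± 0.13 CPM (SD, n = 3 each), a log2 fold change of -3.11 (SE 0.414, adjusted p = 0.00582), or 8.61-fold. In controls the gene measured 11.1 ± 1.03 CPM at 2 weeks, 7.72 ± 1.78 at 8 weeks and 4.45 ± 1.26 at 16 weeks (SD, n = 3 each), with a log2 fold change from 2 to 8 weeks of -0.52 (adjusted p = 0.31). The difference between the arms, -2.59 on the log2 scale, did not pass the threshold (adjusted p = 0.186). At 16 weeks after SCI the 3 libraries measured 0.937, 0.498 and 1.27 CPM, and the fall from the same 2-week libraries was past the threshold (log2 fold change -2.25, adjusted p = 0.0375). Without SCI 8 weeks replicate 1 or 3 the call from 2 to 8 weeks was lost (adjusted p = 0.0962 and 0.0522), as it was when these 6 libraries were fitted alone (adjusted p = 0.135).

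The second called gene, ENSRNOG00000005229, was halved at a level where counting error is small. It measured 43.6, 38.4 and 37.7 CPM at 2 weeks and 22.3, 16.3 and 20.7 CPM at 8 weeks, from 149 counts or more. The 6 values formed separate groups with a narrow spread in each. The mean fell from 39.9 ± 3.22 to 19.8 ± 3.14 CPM (SD, n = 3 each), a log2 fold change of -1.01 (SE 0.136, adjusted p = 0.00582). Control levels were 24.9 ± 0.457 CPM at 2 weeks, 22.4 ± 1.45 at 8 weeks and 28.9 ± 1.96 at 16 weeks (SD, n = 3 each), so that the 2-week SCI libraries were the highest of these groups and the 8-week SCI libraries were near the controls. The control change of -0.15 was not past the threshold (adjusted p = 0.569), nor was the difference between the arms of -0.86 (adjusted p = 0.291). At 16 weeks after SCI the level was 20.9 ± 2.94 CPM, below that of the same 2-week libraries (log2 fold change -0.93, adjusted p = 0.0345). The call was lost without SCI 2 weeks replicate 1 (adjusted p = 0.0656) or SCI 8 weeks replicate 3 (adjusted p = 0.0522), and with the 6 libraries fitted alone (adjusted p = 0.135).

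The 2 genes with the smallest p among those higher at 8 weeks did not pass the threshold. ENSRNOG00000014505 measured 5.17, 3.42 and 3.32 CPM at 2 weeks and 9.96, 13.5 and 11.5 CPM at 8 weeks, without overlap (log2 fold change 1.55, SE 0.264, adjusted p = 0.0586). Its control level lay between these, at 7.08 ± 1.93 CPM at 2 weeks and 8.07 ± 1.68 at 8 weeks, and at 16 weeks after SCI it was 7.17 ± 2 CPM (SD, n = 3 each). The 16-week mean thus lay between those at 2 and 8 weeks, with a log2 difference from 2 weeks of 0.84 that was not past the threshold (adjusted p = 0.68), and 16 weeks was not tested against 8 weeks.

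ENSRNOG00000003221 measured 3.85, 6.84 and 5.87 CPM at 2 weeks and 20.3, 16 and 22.9 CPM at 8 weeks after SCI (log2 fold change 1.84, SE 0.353, adjusted p = 0.0996). The control groups were also ordered by week, at 12.9 ± 0.991, 26.4 ± 7.66 and 36.3 ± 7.72 CPM at 2, 8 and 16 weeks (SD, n = 3 each). The control log2 fold change from 2 to 8 weeks was 1.03 (adjusted p = 0.15), and the difference between the arms was 0.81 (adjusted p = 0.632). By 16 weeks after SCI the gene had risen past the threshold against 2 weeks (log2 fold change 2.13, adjusted p = 0.0375), with libraries from 10.8 to 33.4 CPM.

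**Figure D4:**
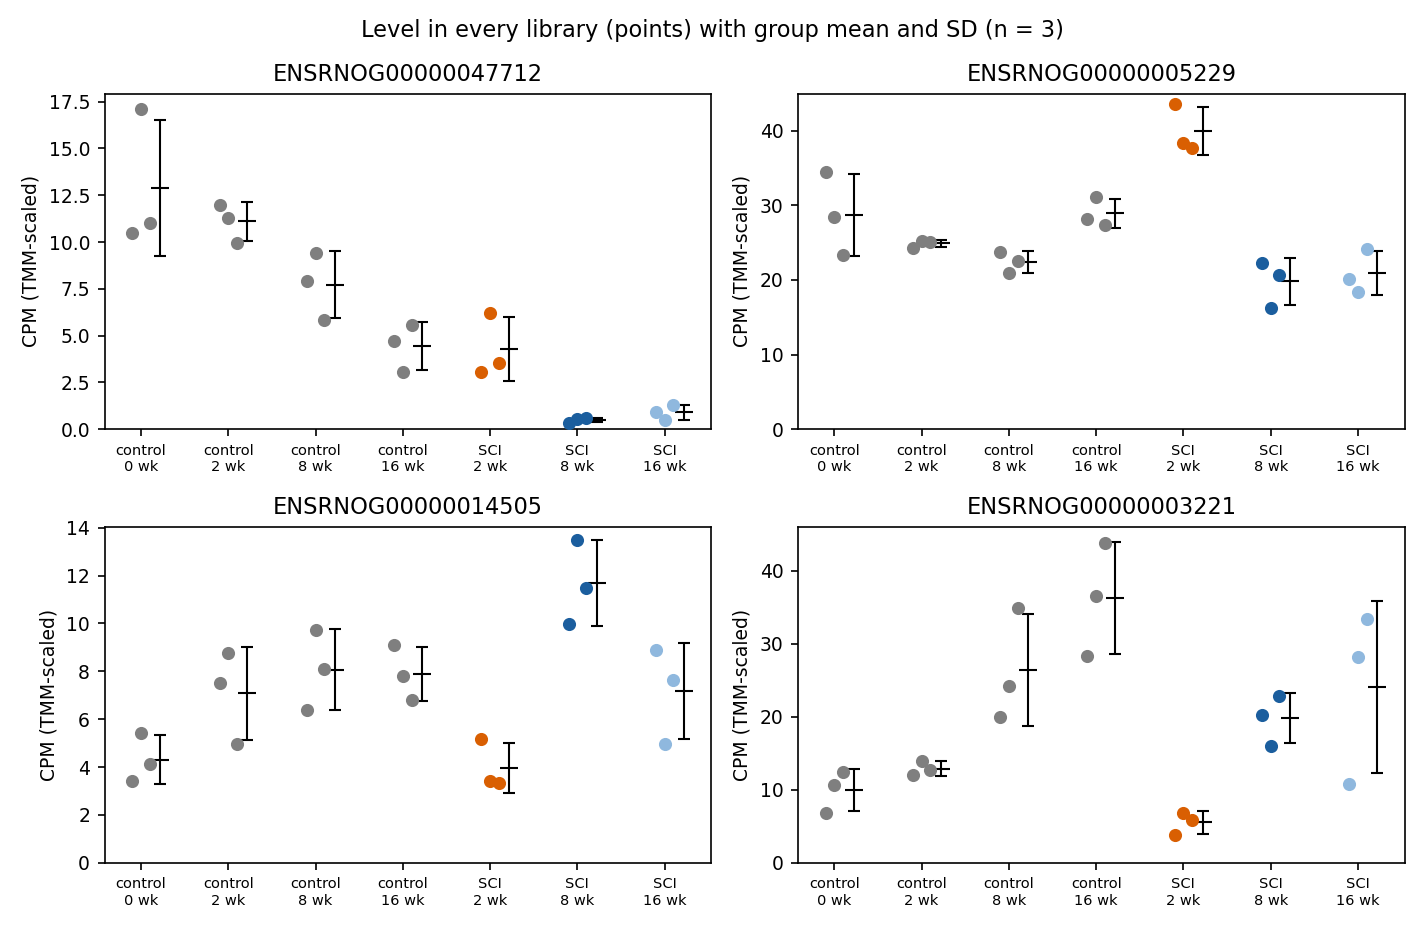
TMM-scaled CPM of 4 genes in all 21 libraries (points, 3 per group) with the group mean and SD (bars), with grey for controls, orange for SCI at 2 weeks, and dark and light blue for SCI at 8 and 16 weeks. The upper 2 genes fell from 2 to 8 weeks after SCI (4.27 to 0.492 and 39.9 to 19.8 CPM), and the lower 2 were higher at 8 weeks without passing the threshold.

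The wider lists held the 12 genes with the smallest p in each direction, among genes of at least 1 CPM whose libraries did not overlap between weeks. The 12 higher genes had log2 fold changes of 0.43 to 1.84 and adjusted p of 0.0586 to 0.349. The 12 lower genes had log2 fold changes of -3.11 to -0.81 and adjusted p of 0.00582 to 0.309, with 2 under 0.05 and 7 under 0.1. Since they were picked on this comparison, only other libraries bear on them. In controls 7 of the 12 higher genes and 8 of the 12 lower genes had the same sign of change over the interval, beside 51% higher and 49% lower among all tested genes. In each list 2 of the 12 had an unadjusted control p under 0.05 in the same direction, beside 10.3% (higher) and 8.67% (lower) of all tested genes. Whether such short lists differ from the background was not tested. From 2 to 16 weeks after SCI, a comparison that shares the 2-week libraries, their median log2 fold changes were 0.55 and -1.14.

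The lower list held 3 genes of very high level, above 1000 CPM at 2 weeks. Their means went from 15100 to 5030, from 15900 to 4580 and from 2780 to 1140 CPM (log2 fold changes -1.59, -1.79 and -1.29), and none passed the threshold (adjusted p = 0.0752, 0.0841 and 0.213). Summed, they took 3.42%, 4.55% and 2.47% of all counts in the 2-week libraries and 0.952%, 1.35% and 1.07% in the 8-week libraries. The 2 groups were separate, with means of 3.48% ± 1.04 and 1.13% ± 0.206 (SD, n = 3 each). At 16 weeks after SCI the share was 0.953% ± 0.323. In controls the mean share was 5.68% at 0 weeks, 4.12% ± 0.792 at 2 weeks, 3.25% ± 0.816 at 8 weeks and 2.35% ± 0.385 at 16 weeks (SD, n = 3 each). At 2 weeks the SCI and control libraries overlapped, and at 8 and 16 weeks each SCI library was below each control library. These 3 genes were singled out after their values were seen, so the shares are a description. From 2 to 16 weeks after SCI, 2 of them passed the threshold (adjusted p = 0.0375 for each). The 10 genes with the most counts in each SCI library took 9.32%, 10.29% and 7.80% at 2 weeks and 6.31%, 8.81% and 6.77% at 8 weeks, so the weeks overlapped. In controls this share was higher at 8 weeks than at 2 weeks in every library, at 9.51% to 10.66% at 2 weeks and 10.98% to 11.77% at 8 weeks, while the mean share of the 3 genes was lower. Its part in other results was not tested.

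**Figure D5:**
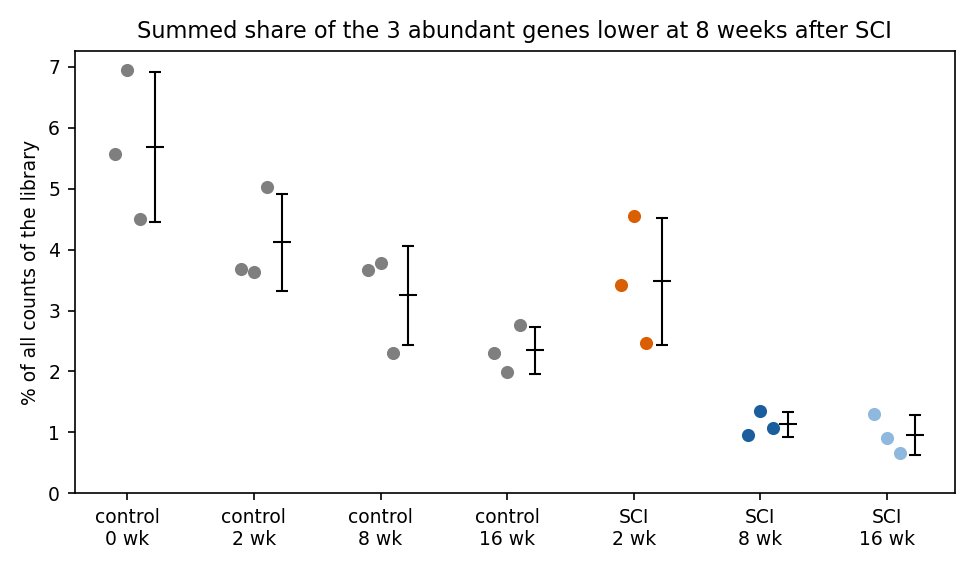
Summed percent of all counts taken by the 3 abundant genes that were lower at 8 weeks after SCI, for each of the 21 libraries (points) with the group mean and SD (bars, n = 3). The SCI libraries lie between 2.47% and 4.55% at 2 weeks and between 0.952% and 1.35% at 8 weeks, and the control means descend from 5.68% to 2.35%.

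Very large fold changes were few and, ENSRNOG00000047712 apart, belonged to genes that also differed widely between animals of one group. Among genes with an unadjusted p under 0.05, 10 differed by 3 or more on the log2 scale, of which 3 were higher and 7 lower at 8 weeks. Of the 10, 9 did not overlap between weeks, beside 10.4% of all tested genes. Their choice by p and size of change in this same comparison favours that outcome, so it is no separate result. One lower gene measured 2.88 to 3.45 CPM at 2 weeks and 0.0978 to 0.327 CPM at 8 weeks (adjusted p = 0.944). Its 2-week controls measured 0.0892, 2.53 and 3.45 CPM, a range as wide as the SCI difference. One higher gene measured 0.886 to 1.45 CPM at 2 weeks and 12.3, 24 and 40.4 CPM at 8 weeks after SCI (adjusted p = 1). It stood at 2.54, 2.68 and 82.1 CPM in the 2-week controls and at 0.697, 0.937 and 35.7 CPM at 16 weeks after SCI. In the 9 of these genes that were not called, the widest ratio between libraries of one group, among the 5 groups outside this comparison and leaving out groups with a library at 0, was 6.81-fold to 51.2-fold. In ENSRNOG00000047712 it was 2.55-fold. Several of the wider ratios rest on a lowest library as low as 0.0892 CPM, so counting error enters them more than it does in this gene. The gene with the largest fitted change had 0 counts in each 2-week library and 0, 1.89 and 20.5 CPM in the 8-week libraries, so its height rested on 2 animals. All of these genes other than ENSRNOG00000047712 failed the adjusted threshold, and they were chosen by the size of their change.

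The third question was whether the move from 2 to 8 weeks differed between injured and control bladders. The interaction called 3 genes (0.0197% of those tested), all of them lower, and before adjustment 1308 genes (8.59%) were under 0.05. The change of each of them after SCI was below that in controls. The first went from 87.2 to 125 CPM at 2 weeks to 49.3 to 70.3 CPM at 8 weeks after SCI, while controls went from 75.1 to 92.8 CPM to 124 to 164 CPM, a difference in change of -1.66 on the log2 scale (SE 0.226, adjusted p = 0.0127). Its libraries moved apart in opposite directions without overlap in either arm, although neither arm alone passed the threshold (adjusted p = 0.0841 for SCI and 0.117 for control). The second went from 5.39 to 8.19 CPM to 3.91 to 4.12 CPM after SCI and from 2.84 to 3.65 CPM to 5.29 to 10.2 CPM in controls (difference -2.10, SE 0.34, adjusted p = 0.0405). The third was a gene of low counts, which went from 1.55 to 1.93 CPM to 0.196 to 0.343 CPM after SCI and from 0.357 to 0.948 CPM to 1.18 to 4.95 CPM in controls (difference -5.04, SE 0.827, adjusted p = 0.0405), and its lowest library held 2 counts. The number called was 0 to 4 when 1 library was left out. It was 0 without replicate 1 of the 2-week controls, replicate 2 of the 8-week controls, or replicate 1 or 3 of the 8-week SCI group. Of the 3 genes, 1 was still called with library size only, without the 0-week controls or with the replicate number as a block, and 0 with only the 4 groups of the interaction fitted.

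Over the whole set of genes with an unadjusted p under 0.05 in the injured arm, the control libraries moved the same way only a little more often than all genes did. Of the 346 genes higher at 8 weeks after SCI, 209 (60.4%) were higher in controls at 8 weeks, beside 51% of all tested genes, with a median control log2 fold change of 0.07. Of the 338 genes lower at 8 weeks, 183 (54.1%) were lower in controls, beside 49%, with a median of -0.04. Their medians after SCI were 0.54 and -0.67, values that the choice of these genes by that comparison enlarges, so the sizes in the 2 arms are not compared. Across 15225 genes, which are not independent replicates, the log2 fold changes of the 2 arms had a Pearson r of 0.082 and a Spearman rho of 0.12.

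The last question was how the injured bladder stood at 16 weeks against the same 2-week libraries. There 7 genes were called, 0.046% of those tested, with 2 higher (0.0131%) and 5 lower (0.0328%), and before adjustment 797 genes (5.23%) were under 0.05. The number called was 0 when replicate 1 or 2 of the 2-week SCI group, replicate 2 of the 16-week SCI group, replicate 3 of the 8-week SCI group, or replicate 1 or 2 of the 8-week controls was left out. With only the 2 groups fitted it was 2, with 0 of them among the 7, so these include no gene given above as called from 2 to 16 weeks. The 346 genes higher at 8 weeks had a median log2 fold change of 0.33 from 2 to 16 weeks, and the 338 lower genes one of -0.46, beside 0.54 and -0.67 from 2 to 8 weeks. These pairs of values share the 2-week libraries. The 16-week libraries were not in the contrast that chose the genes, although they entered the fit that estimated the spread. There the higher set was below the 16-week controls in 62.1% of its genes (median log2 difference -0.10) and the lower set in 64.5% (median -0.18), beside 52.1% of all tested genes.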

How the data were processed

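The authors deposited raw read counts for each Ensembl gene. They made stranded, ribosomal RNA-depleted libraries read as 51-base paired ends on a HiSeq 2500. The submitters' processing notes name FastQC 0.11.9, MultiQC 1.13, Trim Galore 0.6.10, STAR 2.7.10a, SAMtools 1.17, featureCounts 2.0.3 and the build Rnor_6.0. The strand setting was not given in the sources used here, so genes that overlap on opposite strands may share reads. Near-identical copies of a gene may also share reads.

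All 21 libraries were fitted in edgeR 4.0.16 (R 4.3.3) with 7 group means, TMM factors, filterByExpr, the quasi-likelihood F test and Benjamini-Hochberg adjustment over the 15225 tested genes. DESeq2 1.42.0, edgeR's likelihood ratio test, other scalings, filters and sets of libraries, and single libraries left out were alternatives, the libraries of groups not compared being added after seeing the data. Log2 CPM used a prior count of 2. No replicate pair of the 6 libraries agreed within sampling noise (chi-square per degree of freedom 7.41 to 34.2). Scripts were tested on simulated data.

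The members and lists were chosen with earlier results of these data known. Named were the called genes and, per direction, the 12 with the smallest p of at least 1 CPM and no overlap. The condition on symbols and the gene lists could not be applied, so 4 identifiers are printed, the 2 called and the 2 higher with the smallest p.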

Additional observations from a re-analysis of the deposited data

Results flagged for a closer look

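The change from 2 to 8 weeks differed between SCI and control bladders, by a test of the difference itself, for 3 genes. The calls were not stable: 1 of the 3 was still called with library size only, without the 0-week controls or with a replicate block, and 0 with only the groups compared or without any one of 4 libraries. Their differences in log2 change, SCI minus control, were -1.66, -2.10 and -5.04, and in each the 3 SCI libraries were lower and the 3 control libraries higher at 8 weeks than at 2 weeks, without overlap. The third rests on libraries with as few as 2 counts. Single libraries standing apart were not tested in groups of 3.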

How the results depend on the processing

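From 2 to 8 weeks after SCI, the 2 calls became 22 with DESeq2 (5 higher, 17 lower), 28 with the likelihood ratio test, 8 with library size only (1 higher, 7 lower), 9 without a count filter, 1 with only the groups compared (none shared with the 2), and 408 when an unadjusted p under 0.05 and a change of 0.5 or more on the log2 scale were asked for. Leaving out 1 library gave 0 (without SCI 8 weeks replicate 3, with 613 genes at an unadjusted p under 0.05) to 9 (without SCI 2 weeks replicate 3). It gave 1 without replicate 1 of either SCI group, 5 without replicate 2 of the 0-week controls and 7 without replicate 1 at 16 weeks after SCI. The count of 0 in controls became 250 with DESeq2, 193 with the likelihood ratio test, 1 without a filter, 453 with only the groups compared, 211 without the 0-week controls and 1489 with the unadjusted threshold, and 0 to 101 (without control 0 weeks replicate 2) when 1 library was left out. The 3 interaction calls became 27, 34, 1 with library size only, 1 with only the groups compared (in the other direction), 1 without the 0-week controls and 970 in the same settings, and 0 to 4 without 1 library. The 7 calls from 2 to 16 weeks became 25, 30, 2 with only the groups compared (none shared) and 477, and 0 to 10 without 1 library. The cause of these moves was not tested. With only the groups compared, fewer libraries estimate the spread.

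ENSRNOG00000047712 and ENSRNOG00000005229 each passed the threshold in 27 of 30 alternatives, many of them leaving out a library of a group not compared. The 3 losses were with only the groups compared (adjusted p = 0.135) or without a compared library. ENSRNOG00000014505 and ENSRNOG00000003221 passed in 8 and 5 of 30 (adjusted p up to 0.31 and 0.522). No direction was reversed. The week share of the sum of squares was 22.9% to 24.2% under other scalings, filters and prior counts, 30.2% on the 500 most variable genes and 26.4% to 33.4% without 1 library, never past the threshold, which 10 splits cannot reach. Library size only moved the median log2 fold change of all genes to 0.03 after SCI, -0.12 in controls and 0.16 in the interaction, and the share of higher genes at an unadjusted p under 0.05 from 54.2% to 23.9% in controls and from 46.4% to 79.8% in the interaction.

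With the replicate number as a replicate block, 4 genes were called from 2 to 8 weeks after SCI (2 higher, 2 lower, both earlier calls among them) and 8 in controls. The interaction then called 2 genes (1 of the earlier 3), and 16 against 2 weeks called 7 (5 of the earlier 7). Between libraries of the 2 SCI groups with the same number, deviations correlated at -0.05, 0.20 and 0.05, and only replicate 2 correlated best with its own number. So few pairs cannot settle whether the number marks a shared step. Genes under about 1 CPM rested on some 10 counts a library, and changes there are imprecise.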
